A study of Rattus norvegicus with 17 samples.

Results

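The genes described here run the cell division cycle and the copying of DNA. The set holds 40 genes, of which 11 act in S phase, 6 are the cyclins and kinases of G1, 19 act mainly from late S phase to the end of mitosis, and 4 code for inhibitors of cyclin-dependent kinases. They were grouped by what they do and chosen with earlier results of these data known, and every probe set that the annotation of the array gives to 1 of them alone was taken. Of the 40 genes, 38 had such a probe set, and together they had 53 of the 31099 probe sets on the array. Rrm2 lay only on probe sets annotated to several genes and Tpx2 had no listed probe set, so neither was analysed here. Of the 53 probe sets, 48 passed a filter on low values (a value above 2.285 in at least 3 arrays) and represent all 38 measured genes. The 5 that did not pass are 1 of Gmnn, 3 of Cdc20 and 1 of Cdkn2c.

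The arrays profile the gubernaculum, the fetal ligament that draws the testis towards the scrotum, taken at gestational day 17 from male fetuses of Long Evans rats. Each replicate pooled 2 gubernaculum bulbs in organ culture, kept for 24 h in hormone-free medium with charcoal-stripped serum and an insulin, transferrin and selenium supplement, and then for 24 h in the same medium alone (control, 6 arrays) or with the peptide hormone insulin-like 3 (Insl3), which the fetal testis makes, at 10 nM (3 arrays) or 100 nM (6 arrays). The submitters set aside 10 nM replicates 4 and 5 as outliers, with labelled cRNA yields of 25.66 and 33.68 µg against 48.6 to 102.69 µg for the other arrays, and these 2 arrays enter no comparison here. Because every culture contained insulin and serum, the control is a culture that already receives growth factors. The RNA integrity number was 10 wherever the labels give one, which they do not for 10 nM replicates 1 and 2.

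Levels are GCRMA values on a log2 scale, so a difference of 1 is a doubling. The labels state no log base, and log2 is taken from the scale that GCRMA writes. Pairwise correlations among the 15 compared arrays lay between 0.978 and 0.996, and array medians lay between 4.29 and 4.39. Markers of skeletal muscle averaged 12.07 to 12.78 and markers of mesenchyme 12.16 to 12.74 on these arrays, the tissues of which a gubernaculum is made. Erythroid markers, which mark red blood cell precursors, averaged 7.87 to 9.79 in control, 7.69 to 8.98 at 10 nM and 5.88 to 8.14 at 100 nM. In a bulk sample, fewer cells of a type and less RNA per cell cannot be told apart, and this holds for the cycle genes too.

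A dividing cell passes a G1 checkpoint where D-type cyclins with Cdk4, and then cyclin E with Cdk2, release E2F transcription factors, which switch on genes for DNA synthesis. The Mcm helicase opens the DNA in S phase, Pcna holds the polymerases on it, and Tyms and ribonucleotide reductase supply nucleotides. Later, a repressor complex called DREAM gives way to B-Myb and Foxm1 at a different promoter element, the cell cycle genes homology region (CHR), often with CCAAT boxes bound by NF-Y nearby, and cyclin A, cyclin B, Plk1 and the spindle genes are made for mitosis. Cyclin-dependent kinase inhibitors such as p21 (Cdkn1a), p27 (Cdkn1b) and p57 (Cdkn1c) hold cells out of the cycle, and p57 is abundant in many fetal tissues.

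Short motifs in the promoters of the mitosis genes and of the S phase genes are shown because the mitosis genes lay lower together at 100 nM while most S phase genes had differences near 0. RefSeq promoter windows on the rat build GRCr8, from 250 bases before to 50 bases after each gene's start, were searched on both strands for a CHR (TTTGAA or TTCGAA), for CCAAT and for an E2F site (TTCCCGC or TTGGCGC or TTCGCGC or TTGCCGC). Matches on opposite strands can share bases, as where TTGGCGC runs into GCGCGAA. Of the 40 genes, 30 had a window. A CHR was present in 9 of 14 mitosis genes (64.3%) and 3 of 9 S phase genes (33.3%), against 19.7% of all 33469 windows. An E2F site was present in 3 of 14 mitosis genes (21.4%) and 8 of 9 S phase genes (88.9%), against 9.52% of all windows. CCAAT was present in 11 of 14 (78.6%) and 7 of 9 (77.8%), against 37.5%. No difference between the groups was tested. These counts describe letters in a window and do not show that a factor binds there. Of mitosis genes with a CHR, Cdc25b, Mki67, Plk1, Bub1b, Top2a and Ccnb2 differed by -0.81, -0.52, -0.26, -0.23, -0.18 and -0.17 at 100 nM. Birc5, Cdk1 and Cdc20, which also have a CHR, differed by -0.07, 0.01 and 0.04. Bub1, Ccnb1, Kif20a, Kif11 and Aurka have no CHR in the window and differed by -0.29, -0.27, -0.21, -0.20 and -0.19. Whether a motif goes with the difference was not tested.

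In the windows below, printed 5′ to 3′ along the gene, capitals mark the CHR and CCAAT in mitosis genes and the E2F site in S phase genes. Cdc25b (chr3:138859923-138860222, plus strand), which fell at 100 nM, has a CHR starting 36 bases before the gene start and a CCAAT on the other strand 71 bases before it. Plk1 (chr1:186147408-186147707, plus strand) has a CCAAT 38 bases before and a CHR 7 bases after the start. Ccnb2 (chr8:79981609-79981908, minus strand) has CHRs at 214 and 43 bases before the start and, between them, 3 CCAAT boxes at 134, 101 and 68 bases, as well as an E2F match at 11 bases. Top2a (chr10:84473044-84473343, minus strand) has CHRs at 152 and 22 bases before the start among 4 CCAAT boxes. Bub1 (chr3:135504872-135505171, minus strand), which also fell at 100 nM, holds none of the 3 motifs in this window. The genes without a window in the table used are Ccna2, Ccnd1, Ccnd2, Mcm4, Rrm2, Cdkn1c, Aurkb, Tpx2, Ube2c and Foxm1.
Cdc25b: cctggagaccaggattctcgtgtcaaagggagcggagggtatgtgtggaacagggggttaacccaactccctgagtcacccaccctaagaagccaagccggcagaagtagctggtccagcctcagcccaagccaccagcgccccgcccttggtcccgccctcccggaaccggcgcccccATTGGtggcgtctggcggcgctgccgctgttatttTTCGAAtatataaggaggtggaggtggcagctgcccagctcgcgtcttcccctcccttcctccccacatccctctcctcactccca
Plk1: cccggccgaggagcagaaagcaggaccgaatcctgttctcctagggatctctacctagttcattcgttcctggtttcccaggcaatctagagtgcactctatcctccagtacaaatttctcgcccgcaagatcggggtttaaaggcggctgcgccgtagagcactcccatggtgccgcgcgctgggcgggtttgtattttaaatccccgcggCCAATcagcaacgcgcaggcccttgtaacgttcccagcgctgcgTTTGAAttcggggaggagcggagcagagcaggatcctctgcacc
Ccnb2: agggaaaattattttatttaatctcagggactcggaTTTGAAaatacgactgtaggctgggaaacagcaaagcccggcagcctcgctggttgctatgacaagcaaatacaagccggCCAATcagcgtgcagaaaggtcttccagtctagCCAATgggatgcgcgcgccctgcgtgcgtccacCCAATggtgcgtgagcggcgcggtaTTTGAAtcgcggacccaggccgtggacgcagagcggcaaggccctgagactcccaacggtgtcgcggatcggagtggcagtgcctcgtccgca
Top2a: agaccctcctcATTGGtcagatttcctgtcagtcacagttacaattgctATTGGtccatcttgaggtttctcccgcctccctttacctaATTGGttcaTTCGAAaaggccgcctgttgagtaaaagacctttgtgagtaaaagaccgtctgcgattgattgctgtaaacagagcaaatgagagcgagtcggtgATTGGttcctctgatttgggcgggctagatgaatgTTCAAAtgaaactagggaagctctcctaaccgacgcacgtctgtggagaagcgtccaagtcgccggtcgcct
Bub1: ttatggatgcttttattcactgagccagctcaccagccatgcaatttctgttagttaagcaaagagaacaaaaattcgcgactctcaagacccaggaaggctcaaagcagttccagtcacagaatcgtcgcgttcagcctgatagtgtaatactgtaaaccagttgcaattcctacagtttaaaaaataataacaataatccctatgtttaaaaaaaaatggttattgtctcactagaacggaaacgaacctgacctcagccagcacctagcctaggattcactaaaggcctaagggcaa

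For contrast, 3 S phase windows are shown with the E2F site in capitals. Mcm3 (chr9:30733697-30733996, minus strand) has sites starting 6 bases before and 15 bases after the gene start. Mcm6 (chr13:42404303-42404602, minus strand) has 5 overlapping or separate matches, at 138, 135, 75, 72 and 5 bases before the start. Tyms (chr9:120776034-120776333, minus strand), the S phase gene that fell at 10 nM, has 1 match at 36 bases before the start and neither a CHR nor a CCAAT.
Mcm3: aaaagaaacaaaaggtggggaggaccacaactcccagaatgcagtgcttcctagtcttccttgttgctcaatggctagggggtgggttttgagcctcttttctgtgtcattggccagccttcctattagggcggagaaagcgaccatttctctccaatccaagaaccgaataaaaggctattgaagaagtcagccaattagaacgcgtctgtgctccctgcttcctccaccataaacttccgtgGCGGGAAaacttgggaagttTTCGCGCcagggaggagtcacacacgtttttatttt
Mcm6: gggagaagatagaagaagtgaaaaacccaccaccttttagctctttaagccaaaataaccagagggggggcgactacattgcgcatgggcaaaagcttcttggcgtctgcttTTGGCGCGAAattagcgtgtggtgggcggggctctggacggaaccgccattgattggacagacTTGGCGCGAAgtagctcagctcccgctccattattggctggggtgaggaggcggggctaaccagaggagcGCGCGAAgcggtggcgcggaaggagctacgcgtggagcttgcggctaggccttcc
Tyms: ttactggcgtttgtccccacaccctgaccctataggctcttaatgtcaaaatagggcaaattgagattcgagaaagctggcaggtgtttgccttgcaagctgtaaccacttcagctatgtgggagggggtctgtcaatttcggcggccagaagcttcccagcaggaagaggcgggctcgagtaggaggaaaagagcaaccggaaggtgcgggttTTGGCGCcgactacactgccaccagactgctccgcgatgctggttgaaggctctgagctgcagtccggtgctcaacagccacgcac

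At 100 nM, 3 of the 38 measured genes fell against control and none rose. All 3 belong to the mitosis group: Ccna2 (cyclin A2), Cdc25b (a phosphatase that activates Cdk1) and Bub1 (a spindle checkpoint kinase). At 10 nM, 2 genes fell and none rose, namely Ccnd2 (cyclin D2) and Tyms (thymidylate synthase), neither of them a mitosis gene. Between the doses, Ccnd2 was higher at 100 nM than at 10 nM. A gene is said to have risen or fallen where its adjusted p from limma, with Benjamini-Hochberg adjustment over 18938 probe sets, was under 0.05. Where more than 1 probe set reads a gene, that with the highest mean represents it.

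These counts stand against a background in which many probe sets of the array were called. Over all probe sets tested, 4.39% fell and 6.51% rose at 100 nM, 5.70% fell and 4.88% rose at 10 nM, and 1.43% differed between the doses, 1.24% higher and 0.195% lower at 100 nM than at 10 nM. In all, 10.9% were called at 100 nM and 10.6% at 10 nM. The 3 of 38 genes that fell at 100 nM are 7.89%, against 3.98% of all genes tested, and the 2 of 38 at 10 nM are 5.26%, against 3.13%. No direction of the whole set is read from counts this small. By limma's unadjusted p under 0.05, 14 of the 38 genes (36.8%) were lower at 100 nM and 0 were higher, against 10.5% lower and 17.1% higher over all genes tested (12.2% and 13.8% over all probe sets). At 10 nM these counts were 4 lower (10.5%) and 0 higher, against 6.48% and 15.2% over all genes tested (10.3% and 13.5% over all probe sets). Both doses were compared with the same 6 control arrays, so the comparisons are not independent of each other.

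**Figure D1:**
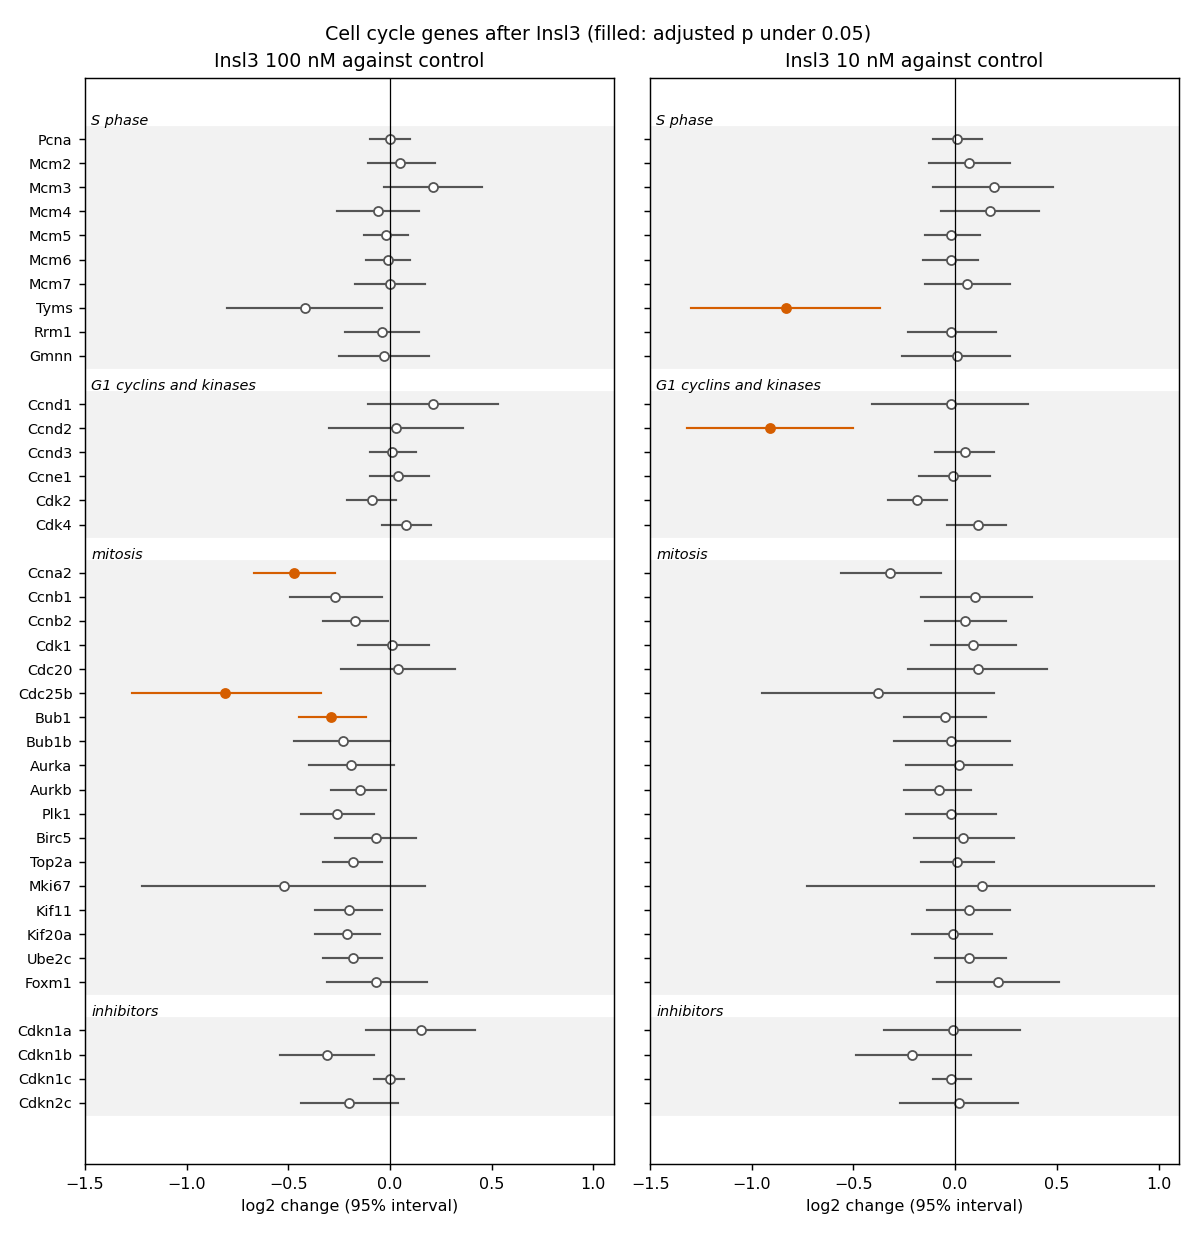
Log2 difference from control of the 38 measured genes at 100 nM (left) and 10 nM (right), by role, with limma's 95% interval; 1 probe set represents each gene, and filled points have an adjusted p under 0.05. At 100 nM the mitosis genes lie mostly left of 0, with Ccna2, Cdc25b and Bub1 filled, and at 10 nM the filled points are Tyms and Ccnd2.

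The S phase genes, which build and feed the replication fork, differed little from control at either dose, with the exception of Tyms. Of the 10 measured, 0 changed at 100 nM and 1 fell at 10 nM, with a median difference of -0.01 at 100 nM and 0.01 at 10 nM. Over all 10665 genes tested, the medians were 0.02 and 0.06. The S phase median at 100 nM was -0.11 with either the erythroid or the leukocyte mean in the fit. The sliding clamp gene Pcna had a mean of 13.95 in each of the 3 groups, and its difference at 100 nM was 0.00 with a 95% interval of -0.10 to 0.10. Among the 6 helicase subunit genes Mcm2 to Mcm7, differences at 100 nM ran from -0.06 (Mcm4) to 0.21 (Mcm3). Rrm1, the large subunit of ribonucleotide reductase, differed by -0.04, and Gmnn (geminin), which blocks re-replication, by -0.03. Leaving Tyms aside, the 95% intervals of the S phase genes lay within -0.26 to 0.45 at 100 nM.

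Mcm3 had the largest positive difference of the group. Its lowest, median and highest control values were 9.63, 9.75 and 10.35, and at 100 nM they were 9.91, 10.08 and 10.21, inside the control range. The 10 nM arrays read 10.16, 10.11 and 9.88. The difference at 100 nM was 0.21 (SE 0.11, adjusted p 0.261) and at 10 nM 0.19 (SE 0.14, adjusted p 0.446), neither past the threshold.

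Tyms codes for thymidylate synthase, the enzyme that makes the thymidine nucleotide needed for DNA synthesis. Its control values ran from 8.21 through a median of 8.39 to 8.74, and the 10 nM arrays read 7.53, 7.44 and 7.81, all below every control. At 100 nM the values ran from 7.35 through 8.03 to 8.46 and overlapped both other groups, with replicates 1 and 2 at 8.46 and replicates 4 and 5 at 7.69 and 7.35. Tyms was 1.78-fold lower at 10 nM (log2 difference -0.83, SE 0.22, adjusted p 0.0239). At 100 nM the difference was -0.42 (SE 0.18, adjusted p 0.151). The 10 nM call was lost without 10 nM replicate 1 (adjusted p 0.0914) or replicate 2 (adjusted p 0.107) and without the filter on low values (adjusted p 0.0571). The set-aside arrays read 8.13 and 8.56, and with them in the 10 nM group the difference was -0.53 (adjusted p 0.145).

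The G1 cyclins and kinases take a cell from G1 into S phase. By the probe sets that represent them, only Ccnd2 changed against control, and only at 10 nM. Of the 6 genes, 0 changed at 100 nM and 1 fell at 10 nM by that rule. A different probe set of Ccnd1 rose at both doses, as given below. Ccnd3 differed by 0.01 at 100 nM and 0.05 at 10 nM, Ccne1 by 0.04 and -0.01, and the kinase gene Cdk4 by 0.08 and 0.11. Cdk2, the partner of cyclins E and A, differed by -0.09 (SE 0.06, adjusted p 0.359) at 100 nM and by -0.19 (SE 0.07, adjusted p 0.113) at 10 nM. Its control values ran from 10.46 through 10.64 to 10.75, the 10 nM arrays read 10.51, 10.34 and 10.44, and the 100 nM values ran from 10.47 through 10.51 to 10.66. The 3 groups overlap.

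Ccnd2 codes for a D-type cyclin that answers growth signals. Its control values were 12.29 at the lowest, 12.49 at the median and 12.69 at the highest, and the 10 nM arrays read 11.86, 11.54 and 11.32, below every control. At 100 nM the values ran from 11.90 through 12.68 to 12.84, with replicates 4 and 5 lowest at 12.22 and 11.90, and all 6 were above the 10 nM arrays, as in 3.84% of all probe sets. Ccnd2 was thus 1.88-fold lower at 10 nM than in control (-0.91, SE 0.19, adjusted p 0.00711) and at 100 nM differed from control by 0.03 (SE 0.16, 95% interval -0.30 to 0.36). The difference between the doses was itself called, at 1.92-fold (0.94, SE 0.19, adjusted p 0.0347). The 10 nM call was lost without 10 nM replicate 3 (-0.78, adjusted p 0.0566). The call between doses was lost without any 1 of 7 arrays (control replicate 5, 10 nM replicates 2 and 3, and 100 nM replicates 1, 2, 3 and 6), with adjusted p between 0.0518 and 0.246, and in 7 of the other 16 alternatives, among them the leukocyte mean in the fit (0.61, adjusted p 0.363).

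Ccnd1, which codes for another D-type cyclin, was read by 3 probe sets that gave different calls. Probe set 1383075_at, which has the highest mean, differed by 0.21 (SE 0.15, adjusted p 0.397) at 100 nM and by -0.02 at 10 nM. Probe set 1371643_at ran from 8.31 through 8.48 to 8.65 in control, read 8.91 in replicate 1 and 8.71 in replicate 3 at 10 nM, with replicate 2 the highest of the 3, and ran from 8.72 through 8.86 to 9.10 at 100 nM, so that every treated array was above every control, as 3.48% of all probe sets were at 100 nM and 9.15% at 10 nM. It rose at 100 nM (0.40, SE 0.08, adjusted p 0.00688) and at 10 nM (0.39, SE 0.10, adjusted p 0.0213). Probe set 1371150_at differed by 0.27 and -0.18 and was not called. The 100 nM call of 1371643_at was kept without any 1 array, whereas its 10 nM call was lost without 10 nM replicate 1 or 2 (adjusted p 0.0858 and 0.116). The 100 nM call was lost with the erythroid mean (adjusted p 0.123) or the leukocyte mean (adjusted p 0.189) in the fit, and within replicates 1, 2 and 6 (0.58, adjusted p 0.0547) and replicates 3, 4 and 5 (0.23, adjusted p 0.103). This division of the replicates was chosen from an earlier look at the same arrays, and the labels name no batch for it. With the 2 set-aside arrays the 10 nM difference was 0.25 (adjusted p 0.148). The 3 probe sets share the sign at 100 nM and not at 10 nM.

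The mitosis genes were the group whose members lay lower together at 100 nM. Of the 18 measured, 3 fell and 0 rose, 16 had a difference below 0 (88.9%, against 44.6% of all genes tested), and 12 (66.7%) were lower at an unadjusted p under 0.05, against 10.5% of all genes tested. The count of 12 became 6 with all 17 arrays, 7 within replicates 3, 4 and 5, and 7 with the leukocyte and 9 with the erythroid mean in the fit. Over all probe sets, 12.2% were lower at that level in the main fit. In those fits, in the same order, 8.3%, 12.1%, 9.33% and 10.7% were. On the same 100 nM arrays 8 of 12 measured erythroid and 7 of 16 measured leukocyte markers fell. The median difference of the 18 mitosis genes was -0.19, with a range from -0.81 (Cdc25b) to 0.04 (Cdc20). At 10 nM the median was 0.03, 7 of 18 were below 0, 0 changed and 1 was lower at an unadjusted p under 0.05. Directly between the doses, 18 of 18 were lower at 100 nM, with a median of -0.22 and 8 (44.4%) at an unadjusted p under 0.05, but 0 passed the adjusted threshold. The count of 8 became 3 to 10 when 1 array was left out (3 without 10 nM replicate 2, and 4 without 10 nM replicate 1 or 100 nM replicate 2 or 3). With all 17 arrays it was 5, the median was -0.08 and 13 of 18 were lower. Over all genes tested, 59.2% were below 0 and 5.55% lower at that level in this comparison. Over all probe sets, 5.69% were lower and 6.58% higher at that level. Whether the mitosis genes differ from the S phase genes in this was not tested.

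The mean of the 18 mitosis genes on each array, taken as the difference from the control mean, ran from -0.18 to 0.13 in control, from -0.03 to 0.05 at 10 nM and from -0.32 to -0.13 at 100 nM. All 6 arrays at 100 nM lay below the 3 at 10 nM. Among the controls only replicate 3, at -0.18, reached into the 100 nM range, and the other 5 ran from -0.06 upwards. The mean of the 10 S phase genes ran from -0.07 to 0.12 in control, -0.07 to 0.01 at 10 nM and -0.15 to 0.06 at 100 nM, with the 3 groups overlapping.

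**Figure D2:**
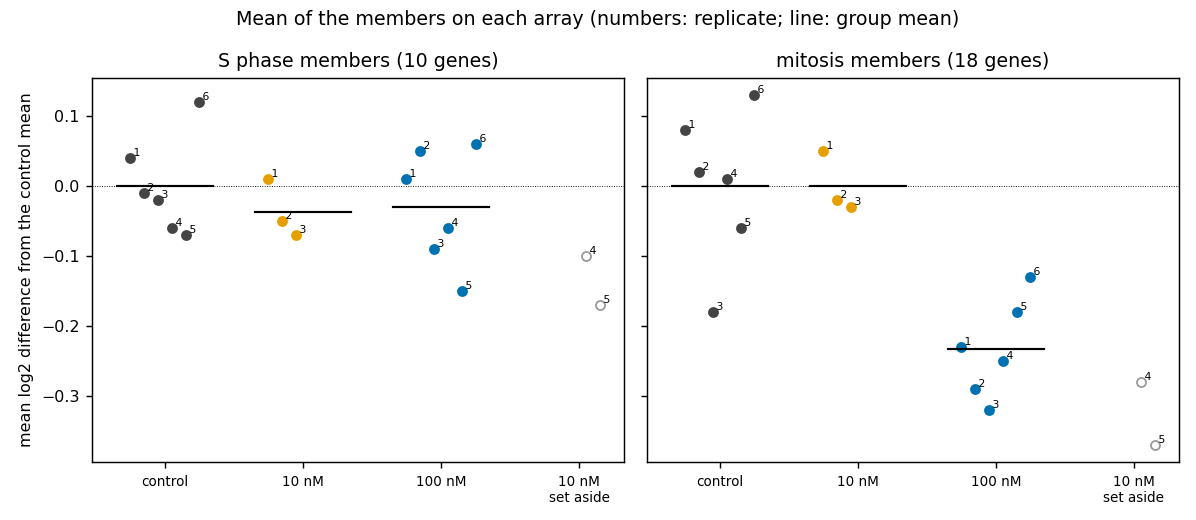
Mean log2 difference from the control mean over the 10 S phase genes (left) and the 18 mitosis genes (right) on each array; numbers are replicates, lines are group means and open points are the 2 set-aside arrays. For mitosis genes the 100 nM arrays lie between -0.32 and -0.13 and the 10 nM arrays between -0.03 and 0.05, while for S phase genes the groups overlap.

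Among the genes of entry into mitosis, Cdc25b and Ccna2 fell at 100 nM. Ccna2 codes for cyclin A2, which works with Cdk2 in S phase and with Cdk1 at the entry to mitosis. Its control values were 11.34, 11.17, 11.15, 11.35, 11.10 and 10.87 in replicates 1 to 6, and the 100 nM values were 10.81, 10.83, 10.57, 10.78, 10.45 and 10.72. Every 100 nM array was below every control, a separation that 1.48% of all probe sets tested showed in this direction. The 10 nM arrays read 11.00, 10.81 and 10.73 and overlapped both groups.

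Ccna2 was 1.39-fold lower at 100 nM (log2 difference -0.47, SE 0.09, 95% interval -0.67 to -0.27, adjusted p 0.0059). At 10 nM the difference was -0.32 (SE 0.11, adjusted p 0.0997). The 100 nM call was kept without any 1 of the 15 arrays, with an adjusted p of at most 0.0158. With the mean of the erythroid markers as a covariate the difference was -0.54 (adjusted p 0.0651), and with that of the leukocyte markers it was -0.59 (adjusted p 0.0665). Within replicates 1, 2 and 6 it was -0.34 (adjusted p 0.261) and within replicates 3, 4 and 5 it was -0.60 (adjusted p 0.0418). Only 1 probe set was annotated to Ccna2 alone.

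Cdc25b codes for a phosphatase that removes the inhibitory phosphates from Cdk1. Its control values were 9.99, 10.06, 11.24, 11.04, 11.05 and 10.37 in replicates 1 to 6, with replicates 3, 4 and 5 about 1 unit above replicates 1 and 2. The 10 nM arrays read 10.33, 10.04 and 10.35, and the 100 nM values ran from 9.55 through 9.78 to 10.22. Replicates 3 and 5 at 100 nM overlap the lower controls. Cdc25b was 1.75-fold lower at 100 nM (-0.81, SE 0.22, 95% interval -1.27 to -0.34, adjusted p 0.0298), and at 10 nM the difference was -0.38 (SE 0.27, adjusted p 0.422).

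The Cdc25b level moved with the erythroid markers from array to array. Their mean was 9.36, 9.79 and 9.47 in control replicates 3, 4 and 5, against 7.87, 7.94 and 8.59 in replicates 1, 2 and 6, and 5.88 to 8.14 at 100 nM. Of the 19 erythroid markers listed, 12 were measured and 8 of them fell at 100 nM, with a median difference of -2.61, while 0 changed at 10 nM, where 1 was higher and 0 were lower at an unadjusted p under 0.05. The erythroid regulator Klf1 had a mean of 6.28 in control and 3.23 at 100 nM, and the globin gene Hbb 16.60 and 16.16. Gata1 was near or at the floor of the array in every group (2.60, 2.13 and 2.11 in control, 10 nM and 100 nM), and Tfrc (11.38 and 11.50) and Sptb (4.92 and 4.97) were not lower at 100 nM than in control. With the erythroid mean as a covariate the Cdc25b difference was 0.05 (adjusted p 0.922), and with the leukocyte mean, of which 7 of 16 measured markers fell at 100 nM, it was -0.10 (adjusted p 0.899). The call was also lost without any 1 of 7 arrays, namely control replicates 3, 4 and 5 and 100 nM replicates 1, 2, 4 and 6, with adjusted p between 0.0529 and 0.0703, and with all 17 arrays (adjusted p 0.099).

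**Figure D3:**
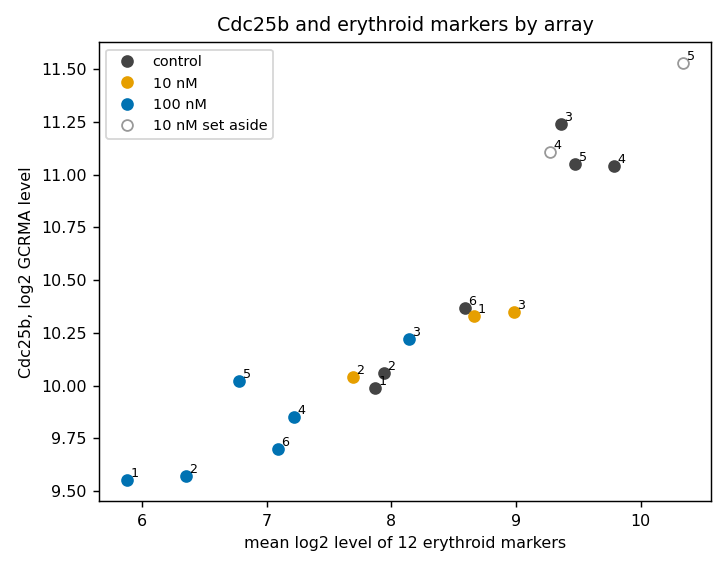
Log2 level of Cdc25b against the mean log2 level of 12 erythroid markers on each array, coloured by group and numbered by replicate, with the 2 set-aside arrays open. Arrays with a higher erythroid mean have a higher Cdc25b level, with control replicates 3, 4 and 5 above 11 and the 100 nM arrays between 9.55 and 10.22.

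The other genes of mitotic entry had smaller differences at 100 nM, and 0 of them passed the threshold. The B-type cyclin genes Ccnb1 and Ccnb2, whose products drive Cdk1 in mitosis, differed by -0.27 (SE 0.10, adjusted p 0.124) and -0.17 (SE 0.08, adjusted p 0.169), and a second probe set of Ccnb1 by -0.32. The 6 values of Ccnb1 (probe set 1370346_at) and the 6 of Ccnb2 at 100 nM all lay below the 3 of the 10 nM group. Of all probe sets, 4.00% lay so. For Ccnb2 the highest 100 nM value was 11.40 and the lowest 10 nM value 11.41. The second probe set of Ccnb1 overlapped, at 9.62 to 10.13 against 9.91 to 10.20 at 10 nM. Cdk1 itself, the kinase partner of both cyclins, differed by 0.01, with a 95% interval of -0.16 to 0.19. Plk1, the polo-like kinase, ran from 10.19 through 10.29 to 10.70 in control and from 9.92 through 10.06 to 10.24 at 100 nM, a difference of -0.26 (SE 0.08, adjusted p 0.0624). Foxm1, the transcription factor that acts on this group, differed by -0.07 at 100 nM and 0.21 at 10 nM. Aurka, a kinase of the spindle poles, differed by -0.19.

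Among the genes of the spindle checkpoint and of exit from mitosis, Bub1 fell at 100 nM. Bub1 ran from 10.72 through 10.93 to 11.05 in control and from 10.47 through 10.60 to 10.85 at 100 nM, with 100 nM replicate 6 (10.85) above control replicates 5 and 6 (10.77 and 10.72). The 10 nM arrays read 10.82, 10.91 and 10.82, within the control range. Bub1 was 1.22-fold lower at 100 nM (-0.29, SE 0.08, 95% interval -0.45 to -0.12, adjusted p 0.0278), and at 10 nM the difference was -0.05. The call was lost without control replicate 1, 2 or 4 or 100 nM replicate 3 or 4 (adjusted p 0.0519 to 0.065). It was also lost with all 17 arrays (adjusted p 0.182) and with the erythroid mean in the fit (-0.33, adjusted p 0.169). Its paralogue Bub1b (BubR1) differed by -0.23 (adjusted p 0.192), the ubiquitin-conjugating enzyme gene Ube2c by -0.18 (adjusted p 0.0989), and Cdc20, which activates the anaphase-promoting complex, by 0.04 (adjusted p 0.887).

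Genes for chromosome structure and spindle motors also lay below control at 100 nM without passing the threshold. Top2a (topoisomerase II alpha, which untangles sister chromatids) differed by -0.18 and by -0.24 on a second probe set. The motor genes Kif11 and Kif20a differed by -0.20 and -0.21, and a second, lower probe set of Kif11 by -0.39. Aurkb and Birc5 (survivin), partners in the chromosomal passenger complex, differed by -0.15 and -0.07.

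Mki67, the gene of the proliferation antigen Ki-67, had the second largest difference of the group but spread widely. In control it read 11.65, 11.68, 9.89, 11.74, 11.03 and 11.83, with replicate 3 far below the other 5. At 100 nM it read 9.92, 10.25, 10.95, 11.25, 11.12 and 11.18, with replicates 1 and 2 lowest. The 10 nM arrays read 11.24, 11.58 and 11.47. The difference at 100 nM was -0.52 (SE 0.33, adjusted p 0.334), with a 95% interval from -1.22 to 0.17. Without control replicate 3 and 100 nM replicates 1 and 2, a choice made after these values were seen, the median difference of the mitosis genes was -0.20. Control replicate 3 also had the lowest mean of the mitosis genes among the controls (-0.18). Leaving it out raises the control side by itself, so nothing is read from this fit.

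**Figure D4:**
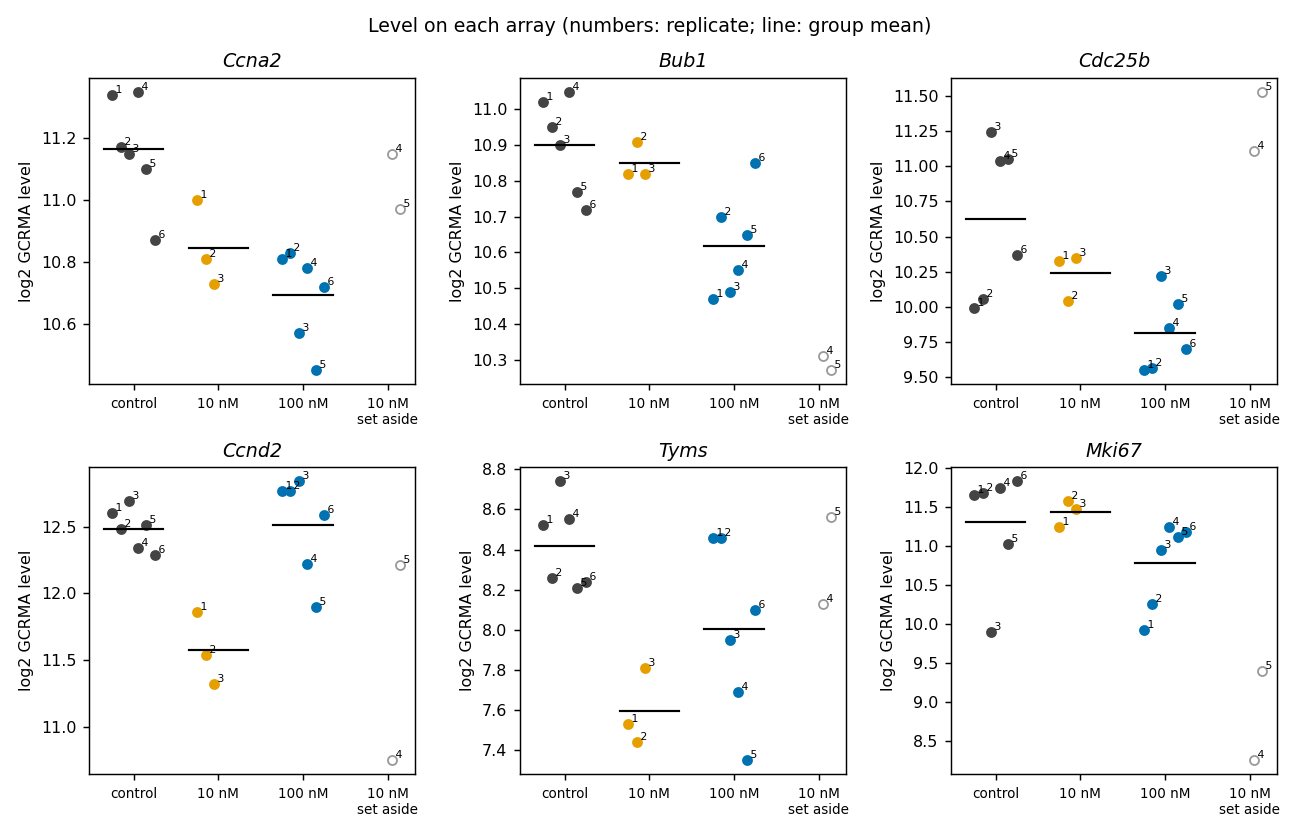
Log2 GCRMA level on each array of the 5 genes that were called in a comparison and of Mki67, by group, with replicates numbered, group means as lines and the 2 set-aside arrays open. Ccna2 separates control from 100 nM, Ccnd2 and Tyms separate control from 10 nM, and Bub1, Cdc25b and Mki67 overlap between control and 100 nM.

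The inhibitor genes were not called by the probe sets that represent them. Cdkn1c (p57) read 15.83 to 15.90 in control, 15.82, 15.87 and 15.83 at 10 nM and 15.84 to 15.88 at 100 nM. Its differences were 0.00 at 100 nM and -0.02 at 10 nM, with 95% intervals within -0.11 and 0.08. Cdkn2c (p18), an inhibitor of Cdk4 and Cdk6, ran from 8.19 through 8.47 to 8.75 in control and from 7.96 through 8.26 to 8.62 at 100 nM. It differed by -0.20 (SE 0.11, adjusted p 0.274) at 100 nM and 0.02 at 10 nM.

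Cdkn1b (p27) was read by 2 probe sets that differed in size of change. Probe set 1373812_at, which has the higher mean, ran from 11.70 through 12.16 to 12.33 in control, read 11.90, 11.72 and 12.08 at 10 nM and ran from 11.59 through 11.77 to 12.03 at 100 nM. It differed by -0.31 (SE 0.11, adjusted p 0.0844) at 100 nM and -0.21 (adjusted p 0.375) at 10 nM. Probe set 1369192_at ran from 6.05 through 6.86 to 7.38 in control, read 4.60, 3.74 and 4.98 at 10 nM, below every control, and ran from 4.73 through 5.99 to 6.62 at 100 nM. It fell 5.29-fold at 10 nM (-2.40, SE 0.38, adjusted p 0.00131), a call kept in all 30 alternatives that were run. It fell 2.07-fold at 100 nM (-1.05, SE 0.31, adjusted p 0.0442), a call lost in 11 of the 15 fits that left out 1 array, with adjusted p up to 0.0928, and in 10 of the other 16 alternatives, with adjusted p up to 0.52.

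Cdkn1a (p21) showed the same division between its probe sets. Probe set 1388674_at, which has the higher mean, ran from 11.10 through 11.47 to 11.68 in control, read 11.23, 11.44 and 11.54 at 10 nM and ran from 11.27 through 11.54 to 11.97 at 100 nM, with differences of 0.15 at 100 nM and -0.01 at 10 nM. Probe set 1387391_at ran from 10.84 through 11.03 to 11.44 in control and read 9.40, 9.36 and 9.22 at 10 nM, below every control. At 100 nM it spread from 8.76 through 10.71 to 11.36, with replicates 1 and 2 inside the control range and replicates 4 and 5 at 9.44 and 8.76. It fell 3.43-fold at 10 nM (-1.78, SE 0.45, adjusted p 0.0195), and at 100 nM the difference was -0.76 (SE 0.36, adjusted p 0.203). The 10 nM call was lost without any 1 of the 3 arrays at 10 nM (adjusted p 0.063 to 0.0861) and without the filter on low values (adjusted p 0.0506). Which transcripts each probe set reads was not analysed here.

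**Figure D5:**
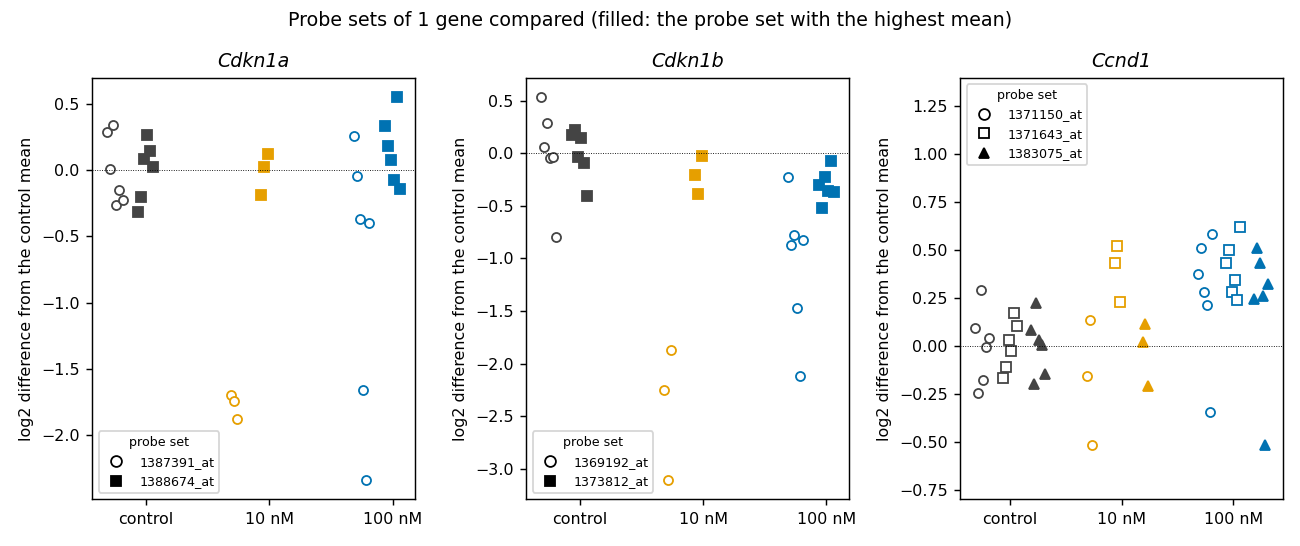
Log2 difference of each array from the control mean for every tested probe set of Cdkn1a, Cdkn1b and Ccnd1, by group; filled symbols are the probe set that represents the gene. For Cdkn1a and Cdkn1b 1 probe set is far below control at 10 nM while the other overlaps the controls, and for Ccnd1 only 1371643_at lies above every control at both doses.

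A common pattern ran through the 4 probe sets whose 10 nM arrays all lay below every control, those of Ccnd2 and Tyms, Cdkn1a 1387391_at and Cdkn1b 1369192_at. In each of them replicates 4 and 5 were the 2 lowest of the 6 arrays at 100 nM. This was noticed after the values were seen. The same held for 701 of all 1480 probe sets (47.4%) with the 10 nM arrays below every control, and for 9.24% of all probe sets tested, so it is common on these arrays. A separation of this kind at 10 nM was found in 7.81% of all probe sets. The beta-actin 3′ minus 5′ difference, a measure of RNA length, was 0.87 in both of those 100 nM arrays and 1.01 to 1.35 in the other 4, and 0.91, 1.06 and 0.95 at 10 nM. The control arrays ran from 0.37 to 1.08, and the part of RNA length in this pattern was not tested. Without 100 nM replicates 4 and 5, a choice made after seeing them, Tyms joined Ccnd2 as higher at 100 nM than at 10 nM. These arrays were the lowest at 100 nM for both genes, so leaving them out raises the 100 nM mean by itself. Over all probe sets, the 271 called between doses became 703 in that fit, and nothing is read from the added call.

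Other genes of the cycle, taken from lists by function, gave counts for replication and for mitosis that can be set beside those above. Over all genes tested, 3.98% fell at 100 nM and 3.13% at 10 nM. Of 38 measured among 44 other replication genes (origin licensing, polymerases, nucleotide supply, chromatin assembly), 1 fell at 100 nM (2.63%) and 0 rose, with a median of -0.02. At 10 nM 0 of them changed. There 0 were higher and 3 (7.89%) lower at an unadjusted p under 0.05, against 15.2% and 6.48% of all genes tested. The gene that fell was Mcm10, a replication initiation factor, at -0.30 (SE 0.08, adjusted p 0.0207), called by 1 of its 2 probe sets. Of 45 measured among 54 other mitosis genes, 9 fell (20%) and 0 rose at 100 nM, with a median of -0.19. Of the 45, 41 were below 0 (91.1%) and 22 (48.9%) lower at an unadjusted p under 0.05, against 44.6% and 10.5% of all genes tested. At 10 nM, 1 fell (2.22%), 22 of 45 were below 0 (48.9%, against 36.6% of all genes tested) and the median was 0.00. Directly between the doses, 43 of 45 were lower at 100 nM (95.6%, against 59.2% of all genes tested), with a median of -0.20, and 0 were called. With all 17 arrays the median was 0.02. By an unadjusted p under 0.05, 10 (22.2%) were lower and 1 (2.22%) higher, against 5.55% and 4.49% of all genes tested.

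Of the 9 genes that fell at 100 nM, Smc4 had the largest difference. Smc4, a condensin subunit that compacts mitotic chromosomes, ran from 9.06 through 9.44 to 9.75 in control, read 8.10, 7.90 and 7.68 at 10 nM and ran from 8.13 through 8.70 to 8.91 at 100 nM, both treated groups below every control. It fell by 0.82 at 100 nM (SE 0.16, adjusted p 0.00479) and fell by 1.53 at 10 nM (SE 0.19, adjusted p 0.000334). Of all probe sets, 1.48% lay below every control at 100 nM and 7.81% at 10 nM. Like the members low at 10 nM described above, Smc4 was lowest in 100 nM replicates 4 and 5, at 8.33 and 8.13. Its partner Smc2 fell by 0.30 at 100 nM (adjusted p 0.0422), where its range of 9.44 to 9.90 overlapped the control range of 9.72 to 10.19. Ccnf (cyclin F) fell by 0.57 (adjusted p 0.014), Aspm, a spindle pole protein gene, by 0.35 (adjusted p 0.0102), Mad2l1 (Mad2, of the spindle checkpoint) by 0.29 on 1 of its 3 probe sets, and the mitotic kinase gene Pbk by 0.24. The remaining 3, Ckap5, Sgo1 and Racgap1, fell by between 0.19 and 0.24. The count of 9 became 4 without control replicate 2, 4 or 5 or 100 nM replicate 2, and 5 without control replicate 1 or 3. It became 1 with all 17 arrays, 0 within replicates 1, 2 and 6, 3 within replicates 3, 4 and 5, 0 with the erythroid mean and 1 with the leukocyte mean in the fit. Over all probe sets, the 2065 called in the main fit became 1008 with all 17 arrays and 200 within replicates 1, 2 and 6. They became 1691 within replicates 3, 4 and 5, 698 with the erythroid mean and 314 with the leukocyte mean. Leaving out 1 array gave 1442 to 2616 over all probe sets. The median of the other mitosis genes stayed between -0.23 and -0.13 in all 32 alternatives. Many of these, such as the fit with all 17 arrays, leave the control and 100 nM means as they are and could not move it.

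The motifs were counted in the other lists too. A CHR was present in 38 of 49 other mitosis genes with a window (77.6%) and 7 of 40 other replication genes (17.5%), and an E2F site in 11 of 49 (22.4%) and 25 of 40 (62.5%). Both a CHR and a CCAAT were present in 31 of 49 other mitosis genes (63.3%) and 8 of the 14 mitosis genes of the main set (57.1%), against 7.95% of all windows.

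Few regulators upstream of the cycle were called, and no direction is read from so few. In the G1 to S list 4.17% fell at each dose, and in the antiproliferative list 6.67% fell at 100 nM. Over all genes tested, 3.98% fell at 100 nM and 3.13% at 10 nM, while 869 and 591 of 10665 rose. Of 24 measured among 28 genes of G1 to S control (the retinoblastoma and E2F families, Myc genes, checkpoint kinases), E2f2 fell at 100 nM by 0.30 (adjusted p 0.0296) and 0 rose. At 10 nM E2f6, a repressor of the E2F family, rose by 0.32 (adjusted p 0.021) and Cdk7, the kinase that activates other cyclin-dependent kinases, fell by 0.29 (adjusted p 0.0331). Of 15 measured among 20 antiproliferative genes, Btg3 rose by 0.47 (adjusted p 0.0255) and Ccng1 (cyclin G1, a target of p53) fell by 0.25 (adjusted p 0.0194) at 100 nM. By an unadjusted p under 0.05, 4 of the 15 (26.7%) were higher and 3 (20%) lower at 100 nM, against 17.1% and 10.5% of all genes tested. At 10 nM 0 of the 15 changed. There 3 (20%) were higher and 0 lower at an unadjusted p under 0.05, against 15.2% and 6.48% of all genes tested.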

How the data were processed

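The authors deposited 1 log2 expression value per probe set and array, made with GCRMA per the submitters' processing notes (no version given). GCRMA corrects background, normalizes between arrays and summarises probes. The file holds 31099 probe sets, of which 20832 carry 1 gene in the platform annotation, 436 several and 9780 are not listed; 57 manufacturer's controls were left out. Between 32% and 35.7% of each array's probe sets lay near the floor of 2.11, where a fold is a lower bound. From these values, probe sets above 2.285 (the 40th percentile) in at least 3 of the 15 compared arrays were tested, 18938 in all. The 3 groups were fitted in 1 model with limma 3.58.1 (lmFit and eBayes, 2-sided) in R 4.3.3, with Benjamini-Hochberg adjustment over all probe sets tested. The labels call the replicates biological, and the p-values rest on the spread among cultures of 1 group. The number of arrays limits the precision. The script was tested on simulated data.

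The genes, the lists and the tests were chosen with earlier results of these data known. Values are given for each member called in a comparison and, per role, for the 2 members with the largest differences at each dose. From other lists, up to 6 called genes per direction are given. Promoters are RefSeq's, on GRCr8. Alternatives covered filters, normalization, limma settings, the arrays in the fit, blocks, covariates, the probe set rule and leaving out each array.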

Additional observations from a re-analysis of the deposited data

Results flagged for a closer look

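In groups of 6 arrays, 1 array lay far from the other 5 by Dixon's test at the 95% level in 10 of the 96 probe set and group combinations examined, where chance flags about 1 in 20. Control replicate 6 accounts for 5 of them. It read 11.19 for Mcm6 (the other controls 10.92 to 11.01), 12.42 for Mcm7 (11.95 to 12.05), 10.96 for Rrm1 (10.41 to 10.59), 10.70 for Plk1 (10.19 to 10.35) and 9.80 for Birc5 (10.13 to 10.28). Control replicate 4 read 13.12 for Cdk4 (13.31 to 13.41). At 100 nM, replicate 1 read 11.73 for Mcm2 (11.86 to 11.93), replicate 3 read 10.90 for Mcm6 (11.0 to 11.02), replicate 5 read 8.83 for Ccnd1 probe set 1383075_at (9.59 to 9.86), and replicate 4 read 10.85 for Top2a probe set 1372186_a_at (10.61 to 10.69).

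In the 2 set-aside arrays, which no comparison used, 3 genes lay above every control on both. The share of all probe sets that did so was not counted, so nothing is read from these 3 genes. Cdk4 read 13.51 and 13.63 against a highest control of 13.41, Ube2c read 12.44 on each against 12.34, and Cdkn1a probe set 1388674_at read 11.71 and 11.80 against 11.68.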

How the results depend on the processing

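The number of member genes called at 100 nM against control, 3, became 1 with the 2 groups fitted alone, 1 with all 17 arrays, 6 with a term for replicates 1, 2 and 6 against 3, 4 and 5, 0 within replicates 1, 2 and 6 (where 200 of all probe sets were called, against 2065) and 1 with the leukocyte mean as a covariate. Leaving out 1 array gave 1 to 5 (1 without control replicate 4 or 100 nM replicate 4, 5 without control replicate 6). Cdc25b reversed to 0.05 with the erythroid mean as a covariate. The count at 10 nM, 2, became 1 without a filter on low values and 4 with the mean of a gene's probe sets. With all 17 arrays it stayed 2, with Cdk2 in place of Tyms. Leaving out 1 array gave 1 to 4 (4 without control replicate 6, 1 without any 10 nM array). The count between doses, 1, became 0 without a filter, with the 2 groups alone, with cRNA yield as a covariate, with the mean of a gene's probe sets, with the leukocyte mean as a covariate and without control replicate 3 and 100 nM replicates 1 and 2. It became 2 with all 17 arrays and without 100 nM replicates 4 and 5. Leaving out 1 array gave 0 to 1. Over all probe sets, the 271 called between doses became 3 to 703 across the 31 alternatives. The cause of these changes was not tested. The leukocyte covariate and the last 2 sets of arrays left out were added after seeing the data. The median of the mitosis genes at 100 nM stayed between -0.31 and -0.14 in all 32 alternatives. Many of these could not move it, because they leave the control and 100 nM means as they are. Among them are the fits without a filter, with other limma settings, with all 17 arrays, with the replicate block or without a 10 nM array.

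Same-numbered arrays of different groups correlated at -0.07 to 0.2 in their deviations from the group means. Their median was 0.12, and 6 of 12 pairs were over 0.1. Pairs with different numbers ran from -0.37 to 0.35, with a median of -0.03 and 16 of 60 over 0.1. The main fit did not take the numbers as a pairing, and whether same-numbered cultures share a source was not tested. With a replicate block, 3 member genes were called at 100 nM (Ccna2, Cdc25b and Plk1, without Bub1, adjusted p 0.0767), 3 at 10 nM (Ccna2 joining) and 1 between doses. The count of other mitosis genes that fell at 100 nM went from 9 to 4 with the block, and that of all probe sets called from 2065 to 1781.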

Other observations

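On the 2 set-aside 10 nM arrays, which the submitters marked as outliers, some mitosis genes read below every control. The share of all probe sets that did so was not counted, so nothing is read from these genes. Mki67 read 8.25 and 9.40 (lowest control 9.89), Top2a 10.46 and 10.57 (11.12), Kif20a 10.17 and 9.77 (10.77), Kif11 9.78 and 9.52 (10.01) and Bub1 10.31 and 10.27 (10.72). Ube2c instead read 12.44 on each, above the highest control of 12.34, and Cdk1, Cdc20, Ccnb1 and Aurka lay inside the control range. The mean over the 18 mitosis genes was -0.28 and -0.37 from the control mean on these arrays, and that over the 10 S phase genes -0.10 and -0.17. On the same arrays Ccna2 read 11.15 and 10.97, inside the control range, and Cdc25b 11.11 and 11.53, beside erythroid means of 9.27 and 10.34. Skeletal muscle markers averaged 12.04 and 11.64 there, below the lowest control mean of 12.38, and mesenchyme markers 11.71 and 11.83, below 12.16.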
